A study of Mus musculus and Rattus norvegicus with 36 samples.

Results

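Liver gene expression was compared between both extremes of selenium (Se) intake in the rat, a toxic diet of 5 μg Se/g and a Se-deficient diet. All 3 liver arrays of each diet were taken by their labels, which gave 6 of the 36 arrays of the series. The comparison sets aside the Se-adequate diet that normally serves as the reference, and so asks how far the opposite ends of the intake range lie from each other. Male weanling rats, supplied by Holtzman, had been fed a torula-yeast basal diet for 28 days. The Se-deficient group received this diet with no Se added, and the toxic group received it with 5 μg Se/g as sodium selenite. Both diets contained added vitamin E and methionine, which the study gave as protection from liver necrosis. Livers were perfused in situ and frozen, and RNA from 1 rat was hybridized to 1 whole-genome array. From the same experiment, 3 arrays at 0.24 μg Se/g (Se-adequate) and 3 at 2 μg Se/g entered the fit for the estimate of the spread and are given beside the results. Body weight, liver enzymes in plasma and tissue Se were not analysed here.

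Selenium acts in mammals mainly as selenocysteine, an amino acid built into a small family of selenoproteins that reduce peroxides, thioredoxin and other substrates or cleave thyroid hormone. The UGA codon that specifies selenocysteine can also be read as a stop, and mRNAs of several selenoproteins are known to be degraded when Se is short. Liver takes up dietary Se and exports it as selenoprotein P. At toxic intakes, selenite reacts with thiols such as glutathione, and the liver is a main target of injury.

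The deposited values are log2 expression levels per probe set, a group of short oligonucleotides that together report 1 transcript, so that a difference of 1 is a 2-fold change. A probe set was called when its limma adjusted p was below 0.05. Of 31042 probe sets, 718 (2.31%) were called between the diets, 544 (1.75%) higher and 174 (0.561%) lower at 5 μg Se/g. In each of the 718 the 3 arrays of one diet lay wholly above or below those of the other. Such separation was common: over all probe sets, called or not, 3580 (11.5%) lay wholly above and 3933 (12.7%) wholly below at 5 μg Se/g. Among the calls, 309 differed at least 2-fold, 242 of them higher and 67 lower. The bulk of the transcriptome lay close to the line of equal expression: group means correlated with r = 0.992 across probe sets (probe sets are not independent replicates), and the SD of all log2 differences was 0.30. Counted as genes, with 1 probe set for each of 14217 symbols, 478 (3.36%) were called, 367 (2.58%) higher and 111 (0.781%) lower. These shares are the background for the gene lists that follow. A further 112 called probe sets have no symbol in the annotation and are not named.

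**Figure D1:**
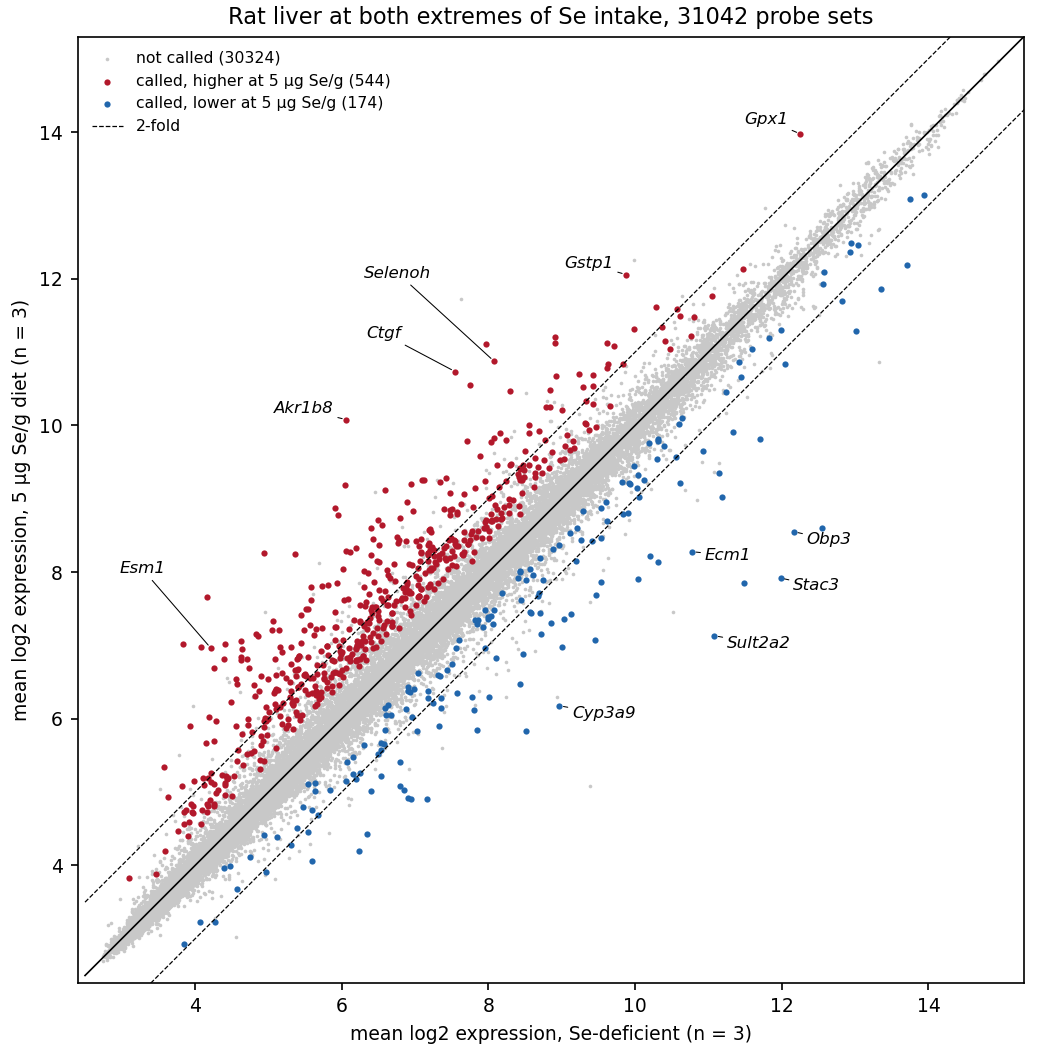
Mean log2 expression of each probe set in 3 Se-deficient livers (horizontal axis) and in 3 livers at 5 μg Se/g (vertical axis). The solid line marks equal levels and dashed lines mark 2-fold. Red points (544) were called higher and blue points (174) lower at 5 μg Se/g, and selected genes are named.

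The Se-adequate arrays lay near the Se-deficient ones for most of these genes. Among probe sets called higher at 5 μg Se/g, the mean at 0.24 μg Se/g differed from the Se-deficient mean by a median of 0.02 and the mean at 2 μg Se/g by 0.19. Among those called lower, the medians were −0.08 and −0.15. Set against 0.24 μg Se/g, 875 probe sets (2.82%) were called at 5 μg Se/g, 686 (2.21%) higher and 189 (0.609%) lower, and 1 (0.00322%), that of Gpx1, in Se deficiency. These contrasts share arrays with the direct one and are given for their own values. For Se deficiency against 0.24 μg Se/g the study itself reported 2 genes higher and 4 lower. A fit of all 18 rat liver arrays gave 2 probe sets higher and 4 lower.

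Array medians lay between 6.26 and 6.29 at all 4 diets. The 3′ minus 5′ level of the actin controls, a sign of RNA integrity, was 1.49 to 1.53 in Se-deficient livers and 1.38 to 1.72 at 5 μg Se/g. Replicate 3 at 5 μg Se/g correlated best with an array at 2 μg Se/g (r = 0.994) rather than with replicates 1 and 2 of its own diet (0.992 and 0.993). It was the nearest of the 3 to Se deficiency in 62.1% of the probe sets called higher and 61.5% of those called lower. Without it, 902 probe sets were called, 669 higher and 233 lower. Replicate 1 at 2 μg Se/g stood apart from the other 11 arrays (r = 0.964 to 0.990) and enters the spread as well as the values given for that diet. Without it there were 1024 calls, 716 higher and 308 lower. The labelled tissue was borne out by its markers, with 8 measured hepatocyte markers averaging 13.52 to 13.61 per array in Se-deficient livers and 13.51 to 13.63 at 5 μg Se/g, and limma called 0 of them. With 3 arrays against 3 an exact test cannot fall below p = 0.10, so the tests rest on the spread shared across probe sets.

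Selenoprotein mRNAs were higher at 5 μg Se/g. Of 22 selenoprotein genes measured, 11 were called higher and 0 lower, against 2.58% and 0.781% of all genes. Their median difference was 0.54, against −0.01 for all genes. Set against 0.24 μg Se/g, the same 22 genes had a median of 0.03 at 5 μg Se/g and of −0.44 in Se deficiency. Across the alternative analyses the count of members called higher ran from 5 to 14, none was called lower, and it was 9 without replicate 3 at 5 μg Se/g.

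The glutathione peroxidases, which reduce peroxides with glutathione, differed among themselves. Gpx1, the abundant cytosolic enzyme, measured 12.25, 12.16 and 12.35 in Se-deficient replicates 1 to 3 and 13.95, 14.09 and 13.88 at 5 μg Se/g. The groups lay far apart, and the level rose 3.29-fold (log2 1.72, SE 0.12, limma adjusted p = 0.00011), with a call in all 21 alternatives. At 0.24 μg Se/g the 3 arrays read 14.13, 14.05 and 14.19, so that the toxic diet brought Gpx1 to about the Se-adequate level and not above it. Gpx3, the secreted plasma form, measured 7.20, 7.16 and 7.34 in Se deficiency and 8.21, 8.17 and 8.63 at 5 μg Se/g, a difference of 1.11 (SE 0.20, adjusted p = 0.016), and its call was lost when any 1 of the 3 Se-deficient arrays was left out (highest adjusted p = 0.076). Gpx4, which protects membrane lipids, differed by only 0.18 and was not called (95% interval −0.37 to 0.73). Gpx2, an epithelial form, read 8.08, 7.46 and 7.26 in Se deficiency and 10.002, 6.599 and 7.95 at 5 μg Se/g, which overlap. Its difference of 0.58 had an interval from −1.49 to 2.65, and both extremes lay above the 5.90, 5.08 and 4.79 found at 0.24 μg Se/g.

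All 3 thioredoxin reductases, which keep thioredoxin reduced, were up-regulated. Txnrd1, the cytosolic enzyme, measured 9.64, 10.25 and 10.07 in Se deficiency and 11.76, 11.03 and 11.14 at 5 μg Se/g. The difference was 1.32 (SE 0.21, adjusted p = 0.0074), and a further probe set gave 1.26 (adjusted p = 0.029). Its 0.24 μg Se/g arrays, 10.59 to 10.85, lay between the extremes. Txnrd3 rose from 7.41, 7.70 and 7.46 to 8.23, 8.13 and 8.31, a level also seen at 0.24 μg Se/g (8.09 to 8.34). The mitochondrial Txnrd2 rose by 0.50 (adjusted p = 0.041), and this call was lost in 12 of the alternatives, among them leaving out each of the 3 Se-deficient arrays or replicate 1 or 3 at 5 μg Se/g.

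Of the deiodinases, which remove iodine from thyroid hormones, Dio1 was the only one called. It measured 6.94, 5.79 and 6.78 in Se deficiency and 7.48, 8.58 and 8.36 at 5 μg Se/g, without overlap but with a wide spread (log2 1.64, SE 0.35, adjusted p = 0.033), and the call was lost in 10 alternatives, including those without Se-deficient replicate 2 or 3 or 5 μg Se/g replicate 2 or 3. Dio2 and Dio3 differed by −0.08 and 0.02 and were not called.

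The small redox selenoproteins gave the largest rises of the family. Selenoh, a nuclear selenoprotein, measured 8.202, 8.203 and 7.826 in Se deficiency and 10.82, 10.83 and 10.98 at 5 μg Se/g, a 6.96-fold rise (log2 2.80, SE 0.32, adjusted p = 0.0013) with a call in all 21 alternatives. At 0.24 μg Se/g it read 10.64 to 10.72. Selenow, the muscle-type selenoprotein W, rose from 5.60, 6.06 and 6.50 to 8.72, 8.29 and 7.85 (log2 2.24, SE 0.42, adjusted p = 0.018). Its Se-adequate arrays, at 6.88, 6.62 and 7.61, lay below all 3 toxic arrays, although that difference of 1.25 was not called (adjusted p = 0.17). Its call against Se deficiency was lost without Se-deficient replicate 1 or 2 or 5 μg Se/g replicate 1 or 2.

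Selenoproteins of the endoplasmic reticulum were divided. Selenom rose from 6.91, 6.90 and 6.83 to 8.53, 8.61 and 8.15, and its Se-adequate arrays (7.03, 6.85 and 7.08) sat with the Se-deficient ones. It was therefore also called at 5 against 0.24 μg Se/g (log2 1.44, adjusted p = 0.020), beside 1.55 (adjusted p = 0.015) in the direct comparison. Selenok went the other way, with 10.27, 10.37 and 10.24 in Se-deficient livers, 11.69, 11.55 and 11.60 at 5 μg Se/g and 11.59 to 11.63 at 0.24 μg Se/g, so that its rise of 1.32 (adjusted p = 0.021) lay wholly between Se deficiency and adequacy. The calls of Selenom and Selenok were lost when any Se-deficient array or 5 μg Se/g replicate 1 or 2 was left out. Selenon, known for its role in muscle disease, rose by 0.94 (SE 0.12, adjusted p = 0.0029), but its less bright probe set did not (0.03, adjusted p = 0.98). Selenot differed by 0.44 (adjusted p = 0.29) on the probe set that stands for it and by 0.46 (adjusted p = 0.017) on the other. Selenos and Selenof differed by 0.36 and 0.26 without a call. In both genes the 3 toxic arrays lay above the 3 Se-deficient ones, as they did in 15.2% of all genes.

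The remaining family members showed differences near 0 or too uncertain to call. Selenop, the exported Se carrier, measured 13.71, 13.77 and 13.75 in Se deficiency and 13.84, 13.82 and 13.78 at 5 μg Se/g, a difference of 0.07 with an interval from −0.16 to 0.30. Msrb1, which repairs oxidized methionine, differed by −0.14 and Selenoi by −0.08. Sephs2, which makes the Se donor for selenocysteine, differed by 0.33. Of 14 measured genes of selenocysteine synthesis and Se handling limma called 0, with 1 higher and 1 lower at an unadjusted p below 0.05, and their median was 0.06. The smallest adjusted p of these was 0.23, for the selenoprotein P receptor Lrp8. Inmt, which methylates Se compounds, read 10.71, 11.08 and 10.76 in Se deficiency and 7.23, 8.94 and 10.77 at 5 μg Se/g. The groups overlapped through replicate 3, and without it the difference was −2.76 (adjusted p = 0.025) in place of −1.87 (adjusted p = 0.28).

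**Figure D2:**
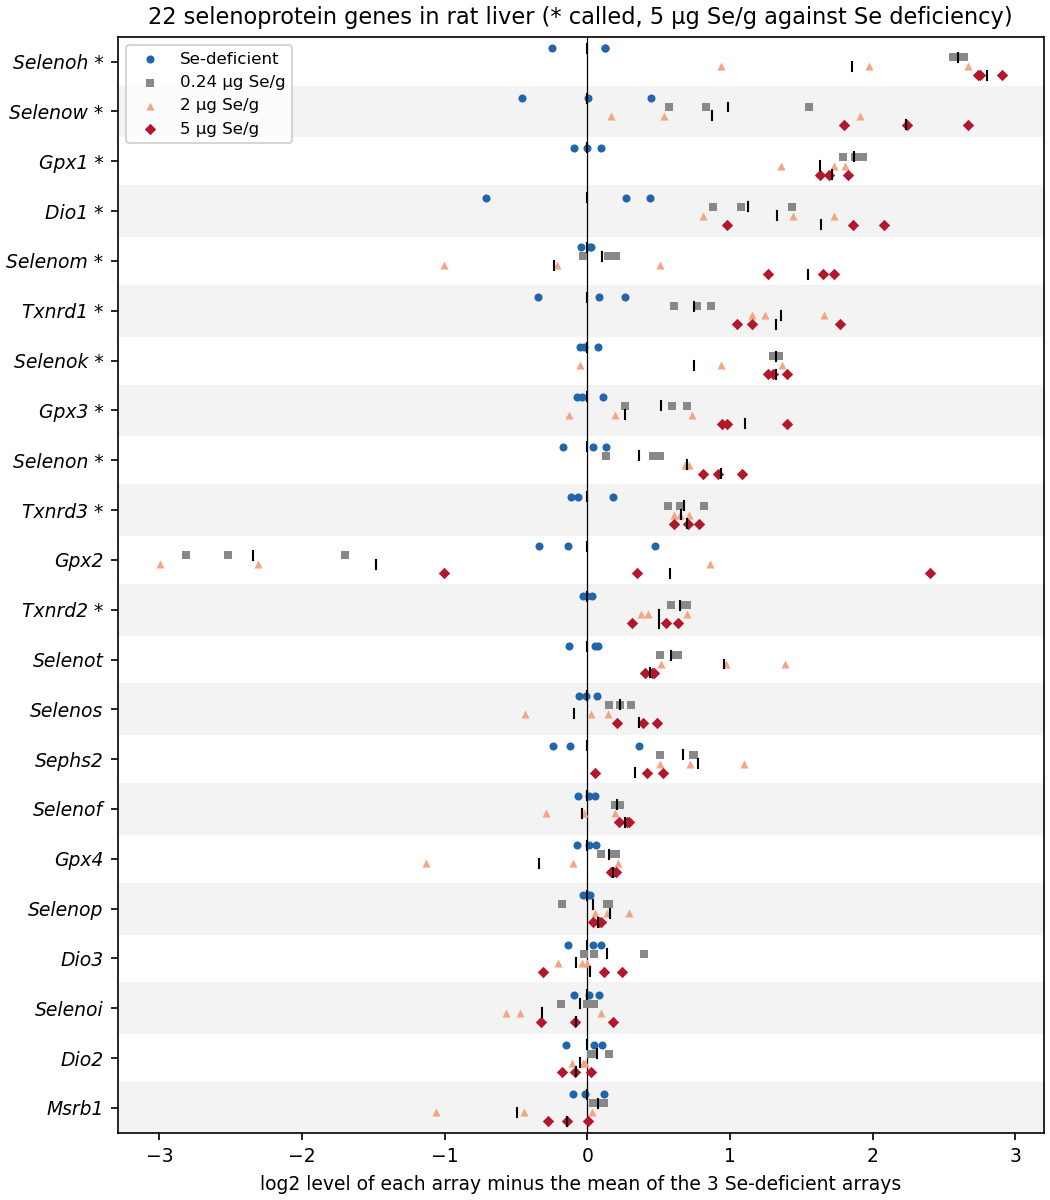
Log2 level of 22 selenoprotein genes in each array, relative to the mean of the 3 Se-deficient arrays (horizontal axis). Symbols give the 4 diets, short bars the means of 3 arrays, and stars the 11 genes called at 5 μg Se/g against Se deficiency. Gpx1, Selenoh and Selenok reached the same position at 0.24 and 5 μg Se/g, whereas Selenom was raised at 5 μg Se/g alone.

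Outside the selenoproteins, the called genes with the largest rises had in most cases overlapping levels on the Se-deficient and Se-adequate diets. Akr1b8, an aldo-keto reductase that reduces reactive aldehydes, measured 5.81, 6.15 and 6.23 in Se deficiency and 9.80, 10.25 and 10.18 at 5 μg Se/g. This 16.2-fold rise (log2 4.02, SE 0.25, adjusted p = 7.9e-05) was the largest among the genes measured and was called in all 21 alternatives. At 2 μg Se/g it read 6.47, 7.29 and 7.62, above the 5.54, 5.56 and 5.26 of 0.24 μg Se/g. Tsx, a testis-specific X-linked gene, rose from 5.40, 4.86 and 4.56 to 8.59, 8.61 and 7.58 (log2 3.32, adjusted p = 0.00029). Serpina7, which encodes the thyroxine-binding globulin of plasma, rose from 8.10, 7.69 and 8.10 to 10.87, 11.56 and 10.89 (log2 3.15, SE 0.35, adjusted p = 0.0013). Ctgf, a matrix protein induced by Tgf-beta and Yap, rose from 7.55, 7.95 and 7.14 to 11.26, 11.55 and 9.40, with replicate 3 clearly the lowest of the toxic arrays (log2 3.19, SE 0.45, adjusted p = 0.0038).

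Several of the largest called rises belonged to secreted, vascular or contractile genes. Apln, the peptide apelin, rose by 2.98 on its brighter probe set and differed by 0.83 on the other, which was not called (adjusted p = 0.19). Esm1, secreted by endothelial cells, rose from 4.25, 4.25 and 4.16 to 6.48, 7.60 and 6.81. Fabp4, a fatty acid binding protein of fat cells and small vessels, rose by 3.15 (SE 0.48, adjusted p = 0.0056), while the fat cell markers Adipoq and Plin1 read 4.51 and 4.53 at 5 μg Se/g and 4.63 and 4.47 in Se deficiency. The protocadherin Pcdh17 rose by 2.88 and had calls on all 3 of its probe sets. Cav1, the coat protein of caveolae, rose by 2.26, likewise on 3 probe sets. The prohormone-processing Cpe rose by 2.27, and the collagen receptor Ddr2 by 2.30, with 1.14 and 0.11 on its other probe sets. Without replicate 3 at 5 μg Se/g these rises grew, to 3.86 for Ctgf, 3.71 for Apln, 3.48 for Pcdh17, 2.79 for Cpe and 2.74 for Cav1.

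**Figure D3:**
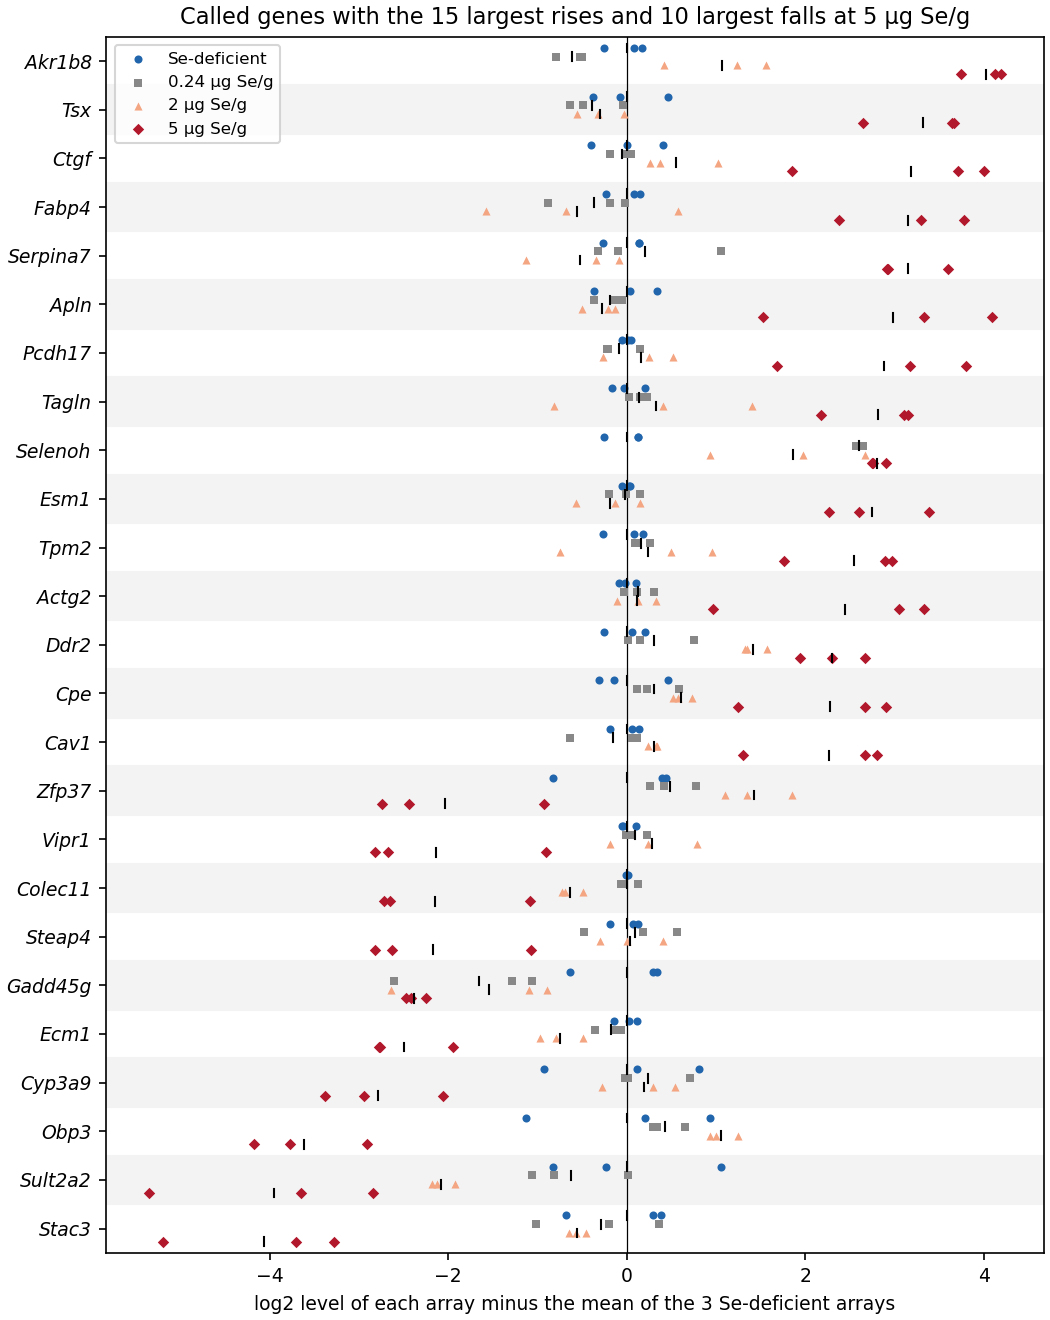
Log2 level in each array of the called genes with the 15 largest rises and the 10 largest falls at 5 μg Se/g, relative to the mean of the 3 Se-deficient arrays. Symbols give the 4 diets and short bars the means of 3 arrays. In most of these genes the arrays at 0.24 μg Se/g overlapped the Se-deficient ones, with Akr1b8, Selenoh and Gadd45g as exceptions, while at 2 μg Se/g several more, among them Sult2a2, Ddr2 and Ecm1, lay apart from Se deficiency.

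The largest called falls were led by genes listed here as growth hormone dependent or sex-biased in liver. Stac3, an adaptor known from muscle excitation, measured 11.30, 12.28 and 12.37 in Se deficiency and 6.79, 8.28 and 8.70 at 5 μg Se/g. It was 16.7-fold lower at 5 μg Se/g (log2 −4.06, SE 0.47, adjusted p = 0.0015). Obp3, a lipocalin of the alpha-2u-globulin type, fell from 12.37, 13.10 and 11.04 to 7.99, 8.40 and 9.26 (log2 −3.62, SE 0.43, adjusted p = 0.0020). Its other probe set gave −3.63. Sult2a2, a hydroxysteroid sulfotransferase, read 10.85, 10.25 and 12.14 in Se deficiency and 5.73, 8.24 and 7.43 at 5 μg Se/g (log2 −3.95, adjusted p = 0.0051), and it was already at 8.90 to 9.16 at 2 μg Se/g. Mup5, of the same lipocalin family, fell by 1.79 (adjusted p = 0.0043). The list of 31 measured growth hormone dependent or sex-biased genes had 5 (16.1%) called lower and 1 (3.23%) higher, against 0.781% and 2.58% of all genes. Its median was −0.26, against −0.01 for all genes. The gene called higher was Igfbp2, an insulin-like growth factor binding protein, at 6.75, 6.33 and 6.56 against 8.61, 9.28 and 8.05 (log2 2.10, SE 0.28, adjusted p = 0.0030). Lower calls numbered 4 to 11 across the alternatives. Members of the alpha-2u-globulin, sulfotransferase and other multigene families have near-identical copies, so their probe sets may report several genes at once.

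Cytochrome P450 genes, which oxidize drugs, steroids and retinoids, were called lower in 3 of 45 (6.67%) and higher in 1 (2.22%), against 0.781% and 2.58% of all genes, with a median of −0.10. Cyp1a2, a major hepatic drug-metabolizing form, fell from 13.36, 13.43 and 13.27 to 11.37, 12.11 and 12.10, to a 2.82-fold lower level (log2 −1.50, SE 0.19, adjusted p = 0.0028). Cyp3a9 fell from 8.04, 9.78 and 9.09 to 6.03, 5.59 and 6.91 (log2 −2.79, adjusted p = 0.0063), without overlap despite its spread. Cyp2d4 fell by 0.65, with a call lost without Se-deficient replicate 2 or 3, 2 μg Se/g replicate 2 or 5 μg Se/g replicate 1 or 2. Cyp26a1, which clears retinoic acid, rose by 1.09 (SE 0.18, adjusted p = 0.0081).

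The other large falls among called genes came from diverse genes. Gadd45g, a stress and growth arrest gene, fell from 8.82, 9.75 and 9.79 to 7.04, 7.21 and 6.98, but its Se-adequate arrays (8.17, 6.84 and 8.39) also lay below the Se-deficient ones. The metalloreductase Steap4 fell by 2.17, the vasoactive intestinal peptide receptor Vipr1 by 2.13 and the zinc finger gene Zfp37 fell by 2.04. In Steap4 and Vipr1 replicate 3 at 5 μg Se/g, at 9.23 and 9.13, lay nearer to Se deficiency than replicates 1 and 2 (7.22 to 7.68). A second Vipr1 probe set gave −0.97 without a call (adjusted p = 0.10). The calls of Gadd45g, Steap4, Vipr1 and Zfp37 were all lost without Se-deficient replicate 2 or 3 or without 5 μg Se/g replicate 1 or 2. That of Gadd45g was also lost without 5 μg Se/g replicate 3, and those of Steap4 and Vipr1 without Se-deficient replicate 1.

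Many genes of the extracellular matrix rose. The study itself had reported matrix, actin cytoskeleton, adhesion and angiogenesis processes as enriched at 5 μg Se/g, from the same toxic arrays. Counts and shares of calls in the collagen, matrix, actin and endothelial lists are therefore not independent evidence. Of 32 collagen genes measured, 9 (28.1%) were called higher and 0 lower, against 2.58% and 0.781% of all genes, with a median of 0.29. Col1a1, the chain of fibrillar type I collagen, measured 8.05, 7.22 and 7.17 in Se deficiency and 8.97, 9.23 and 9.03 at 5 μg Se/g (log2 1.60, SE 0.22, adjusted p = 0.0037). Col4a1, of basement membranes, rose from 8.83, 8.89 and 9.03 to 10.71, 10.79 and 10.54 (log2 1.76, SE 0.18, adjusted p = 0.00069), and Col8a2, a network-forming collagen of vessels, rose 4.64-fold. Col5a2 rose by 0.91. The second probe sets of Col1a1 and Col4a1 rose as well, by 1.88 and 1.63. Without replicate 3 at 5 μg Se/g, 8 collagens were called higher and 1 lower, and the median was 0.12.

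Other matrix genes followed the same direction, with 11 of 50 called higher and 1 lower and a median of 0.43. Lama5 and Lama4, laminin chains of basement membranes, rose by 1.96 and 1.42, but only on 1 probe set each: the dimmer ones gave 0.09, −0.12 and 0.04. Plod2 and Loxl1, which modify and cross-link collagen, rose from 7.08, 7.01 and 6.82 to 8.41, 9.18 and 8.92 and from 7.03, 7.27 and 7.22 to 8.13, 8.14 and 8.19. Each of these pairs of groups was fully separated. The exception was Ecm1, a secreted glycoprotein, which fell from 10.64, 10.80 and 10.89 to 7.997, 8.013 and 8.825 (log2 −2.50, SE 0.21, adjusted p = 0.00023) and was called in all 21 alternatives. Of 34 matrix proteases and inhibitors 3 (8.82%) were called higher and 1 (2.94%) lower, against 2.58% and 0.781% of all genes. Timp3, an inhibitor bound to matrix, rose by 1.74 (adjusted p = 0.0024), from 8.15, 8.15 and 8.16 to 10.15, 10.28 and 9.24. Adamts5 and Mmp15 rose by 0.75 and 0.66, and the protease Mmp19 fell by 0.77. The Mmp15 call was lost without any 1 Se-deficient array or 5 μg Se/g replicate 1 or 2.

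Of 35 Tgf-beta and Yap response genes, 6 (17.1%) were called higher and 0 lower, against 2.58% and 0.781% of all genes (median 0.26). Besides Ctgf, Ankrd1, a nuclear mechanosensitive protein, rose from 5.24, 5.03 and 4.87 to 7.30, 7.57 and 6.75 (log2 2.16, SE 0.23, adjusted p = 0.00071). The adaptor Ajuba rose by 1.23, and the junction protein Amotl1 by 0.73, with −0.09 on its other probe set. At 2 μg Se/g Ankrd1 read 4.45, 4.87 and 5.31, which overlaps Se deficiency.

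Actin cytoskeleton and adhesion genes were called higher in 13 of 60 (21.7%) and lower in 0, against 2.58% and 0.781% of all genes, with a median of 0.46. In 39 of the 60 the toxic arrays lay wholly above the Se-deficient ones, where 15.2% of all genes did so. Flna, which cross-links actin, rose from 8.06, 8.20 and 8.09 to 9.47, 9.63 and 9.27 (log2 1.34, SE 0.14, adjusted p = 0.00067). The non-muscle myosin Myh10 rose from 6.93, 6.99 and 6.93 to 7.96, 8.15 and 8.18, and Tpm4 by 1.01. The largest rise in the list was that of Tagln, by 2.81, from 7.71, 7.95 and 7.58 to 10.85, 10.89 and 9.92. Tpm2 rose by 2.54 and Actg2 by 2.44, but smooth muscle actin, Acta2, by only 0.94. The second Tpm2 probe set did not (−0.06), and for Actg2 replicate 3 at 5 μg Se/g, at 5.22, lay near the Se-deficient 4.17 to 4.36, below the other toxic arrays at 7.30 and 7.58. The Actg2 call was lost without any 1 Se-deficient array or 5 μg Se/g replicate 1 or 2. The count of members called higher was 24 without replicate 1 at 2 μg Se/g and 19 without replicate 3 at 5 μg Se/g, and ran from 6 to 32 over the alternatives.

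Endothelial and angiogenesis genes were called higher in 9 of 33 (27.3%) and lower in 0, against 2.58% and 0.781% of all genes, with a median of 0.51. Tie1, an endothelial receptor, rose from 7.23, 7.10 and 7.21 to 8.59, 8.46 and 8.05 (log2 1.19, SE 0.15, adjusted p = 0.0029). Angpt2, a vessel-destabilizing ligand, rose by 1.29, Thbd, the thrombin receptor of vessels, by 1.33 and the junction protein Pecam1 by 0.74, with a call lost without Se-deficient replicate 1 or 2 or 5 μg Se/g replicate 1 or 2. The dimmer Thbd probe sets gave 1.12 with a call (adjusted p = 0.028) and 0.28 without a call (adjusted p = 0.63). Markers of the sinusoidal endothelium did not follow: Stab2 read 10.13, 10.14 and 10.29 in Se deficiency and 9.20, 9.29 and 10.27 at 5 μg Se/g, and its difference of −0.60 was not called (adjusted p = 0.41), nor was that of Lyve1 (−0.34). The mean of 5 endothelial markers was 9.82 to 9.86 per array in Se-deficient livers and 9.75 to 9.97 at 5 μg Se/g. In whole liver, more or fewer cells of a type and more or less RNA per cell cannot be told apart. The number of genes called higher was 15 without replicate 3 at 5 μg Se/g and ran from 3 to 18 over the alternatives.

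Markers of stellate cells, which store retinoid in the quiescent liver and make matrix when activated, split in both directions. Of 18 measured, 4 were called higher and 6 lower (22.2% and 33.3%, against 2.58% and 0.781% of all genes). Those that fell included markers of the quiescent state. Reln, a secreted glycoprotein, read 10.19, 10.14 and 10.28 in Se deficiency and 7.37, 7.81 and 9.47 at 5 μg Se/g (log2 −1.99, SE 0.39, adjusted p = 0.023), with −2.002 on its other probe set. Colec11, a collectin, fell from 11.19, 11.16 and 11.19 to 8.46, 8.53 and 10.10 (log2 −2.15, adjusted p = 0.0057), and the transcription factor Lhx2 from 7.88, 7.75 and 7.70 to 5.62, 6.05 and 7.21. Lrat, which esterifies retinol for storage and was fixed as a cell type marker, read 8.999, 9.033 and 8.997 against 6.50, 6.08 and 8.34 (log2 −2.04, adjusted p = 0.048). In all of these replicate 3 at 5 μg Se/g lay nearest to Se deficiency, and without it the differences were −2.61 for Reln, −2.69 for Colec11 and −1.94 for Lhx2.

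The stellate markers that rose were cytoskeletal and matrix genes. Des, the intermediate filament desmin, rose from 6.32, 6.51 and 6.33 to 6.98, 7.53 and 7.63 (log2 0.997, SE 0.16, adjusted p = 0.0085). Lox, which cross-links collagen, rose from 7.07, 7.38 and 6.91 to 9.49, 9.08 and 9.20 (log2 2.13, adjusted p = 0.0049). Nes rose by 0.78, and Acta2, smooth muscle actin, rose from 5.91, 6.10 and 5.92 to 7.20, 7.05 and 6.51 with a call (adjusted p = 0.041) that was lost in 11 alternatives, among them those without any 1 Se-deficient array or 5 μg Se/g replicate 1 or 2. Pdgfrb differed by 0.21 and was not called. The calls of Reln, Lhx2 and Nes were lost under the same omissions. That of Lrat, close to the limit with a limma adjusted p of 0.048, was not followed through the alternatives. Lox and Acta2 also belong to the matrix and actin lists, and Ecm1 to the matrix list.

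Bile duct and progenitor markers were called higher in 4 of 20 and lower in 0 (median 0.29). Krt19, a keratin of bile duct epithelium, rose from 6.80, 6.66 and 6.04 to 9.38, 8.53 and 8.22 (log2 2.21, SE 0.32, adjusted p = 0.0041). Gpc3, an oncofetal proteoglycan, rose by 1.99, with 0.15 on its dimmer probe set, and Sox4 and Cd24 rose by 1.16 and 0.93. Of the 7 Sox4 probe sets, the brightest and 1 other were called. The Sox4 and Cd24 calls were lost without Se-deficient replicate 2 or 3 or 5 μg Se/g replicate 1 or 2. The defining markers Krt7 and Cftr stayed near 4.71 and 4.22 at 5 μg Se/g (4.59 and 4.16 in Se deficiency), and Epcam differed by 1.44 (SE 0.99) without a call. Krt7 and Cftr were dim at both diets, below the array medians of 6.26 to 6.29, and so could show little. The mean of 4 duct markers was 5.82 to 6.13 per array in Se-deficient livers and 6.60 to 7.43 at 5 μg Se/g, and this rise lay in Krt19 and the uncalled Epcam. Whether the share of duct cells differed, and what that contributed to the matrix and cytoskeletal rises, was not tested.

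Macrophage and leukocyte markers gave few calls. Of 21 Kupffer cell and macrophage markers 1 was called lower and 1 higher (4.76% each, against 0.781% and 2.58% of all genes). Clec4f, the lectin that marks rodent Kupffer cells, fell from 11.72, 11.50 and 11.87 to 9.38, 9.28 and 10.79 (log2 −1.88, SE 0.33, adjusted p = 0.011), and Gpnmb, of lipid-laden macrophages, rose by 1.16. Both calls were lost without Se-deficient replicate 3 or 5 μg Se/g replicate 1 or 2. Cd68, Cd163 and Csf1r differed by −0.18, −0.09 and −0.24 and C1qa by 0.18, with no call. The median of the 21 markers was 0.07, with 3 higher and 1 lower at an unadjusted p below 0.05. Among 22 other leukocyte markers the cytotoxic protease Gzma was called lower (−0.88), and among 38 acute phase and cytokine genes Il33 was (−1.03, and −1.07 on its other probe set). The Gzma and Il33 calls were both lost without Se-deficient replicate 1 or 3 or 5 μg Se/g replicate 1, among other omissions. The means of the lymphocyte and neutrophil markers were 5.87 to 6.19 in Se-deficient livers and 6.12 to 6.53 at 5 μg Se/g.

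**Figure D4:**
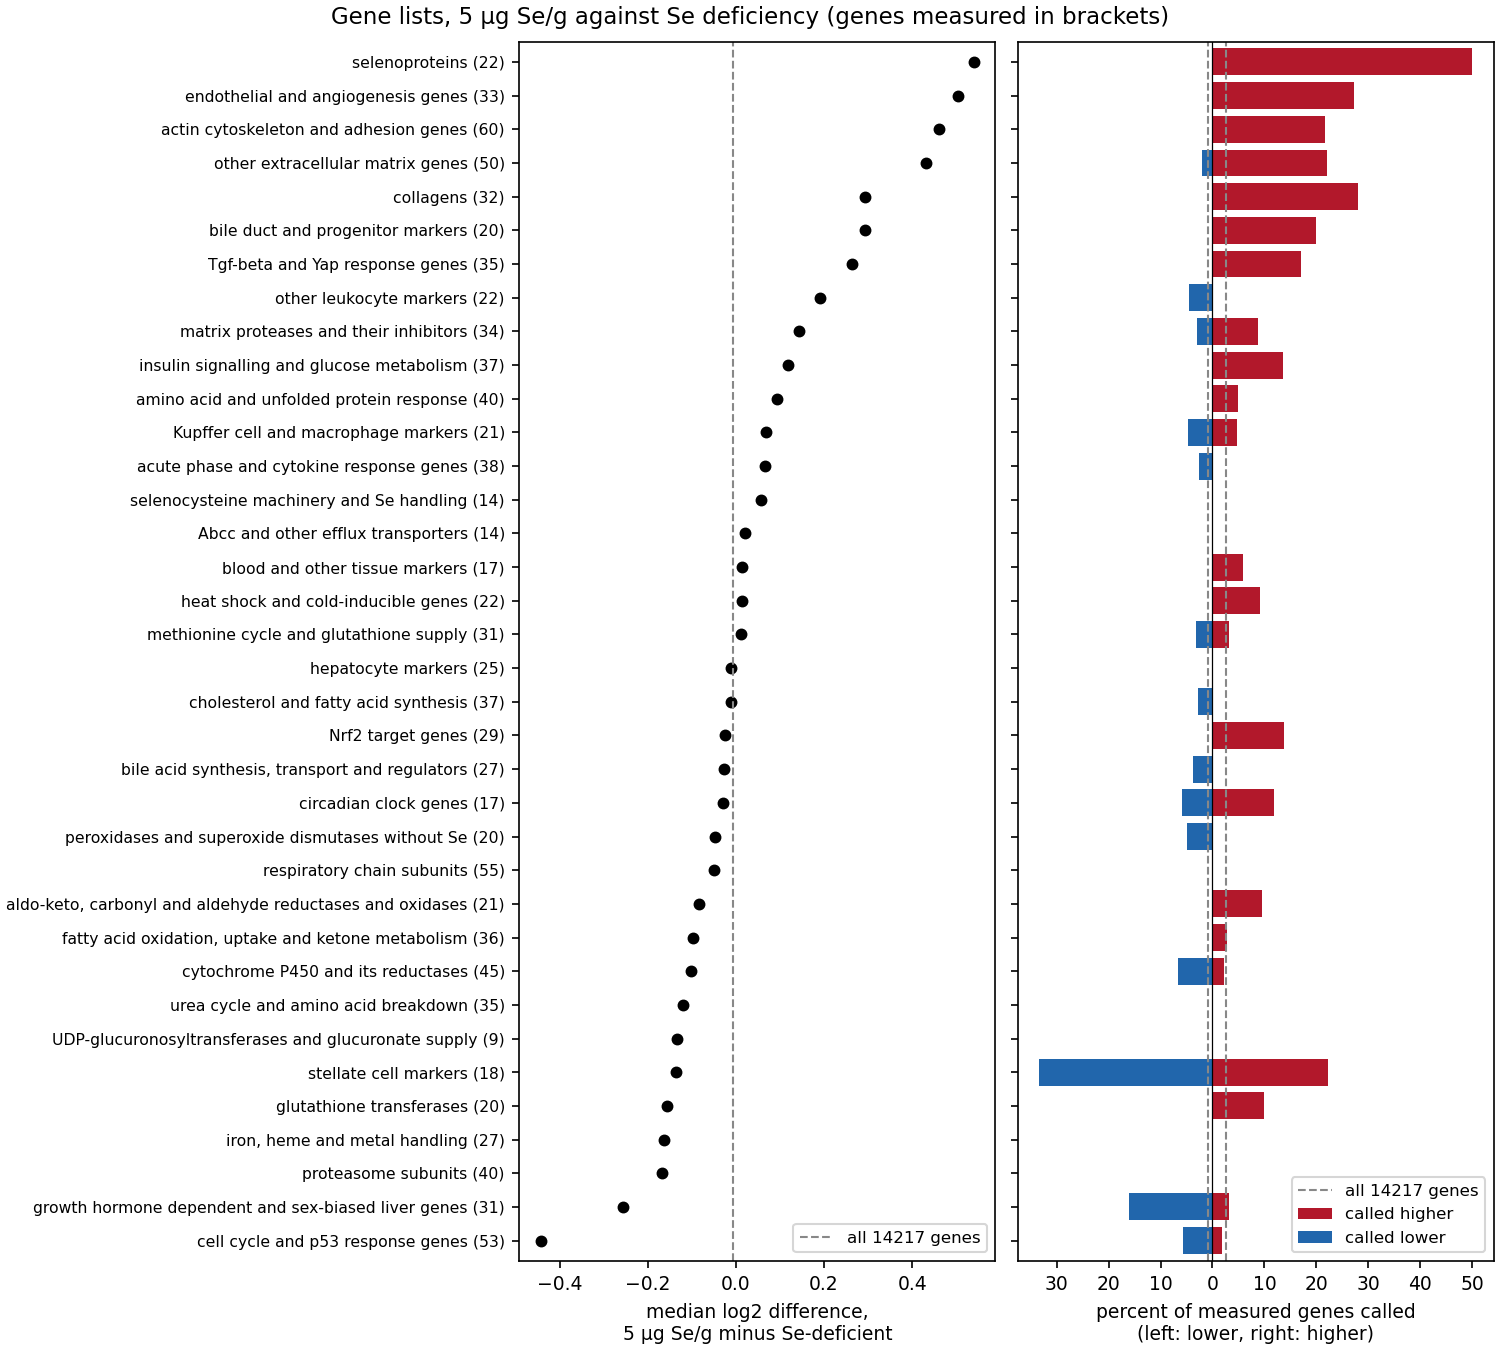
Left, the median log2 difference (5 μg Se/g minus Se-deficient) of each of 36 gene lists. Right, the percent of its measured genes called higher (red) or lower (blue). Dashed lines give the values over all 14217 genes (−0.01, 2.58% and 0.781%), and selenoproteins, endothelial, actin and matrix genes stand at the top. Genes can belong to more than one list.

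Targets of Nrf2, the regulator that responds to electrophiles and oxidants, gave a few large rises and no shift as a list. Of 29 measured, 4 (13.8%) were called higher (Akr1b8, Slc7a11, Gstp1 and Txnrd1) and 0 lower, against 2.58% and 0.781% of all genes. The median difference between the extremes was, however, −0.03. Set against 0.24 μg Se/g, the list had a median of 0.33 at 5 μg Se/g and of 0.32 in Se deficiency, both contrasts sharing the Se-adequate arrays. Slc7a11, the cystine importer that supplies glutathione synthesis, rose from 4.41, 4.74 and 4.74 to 6.21, 7.12 and 7.09 (log2 2.17, SE 0.22, adjusted p = 0.00062) and read 4.06 to 4.50 at 0.24 μg Se/g. Gstp1, a glutathione transferase scarce in normal rat liver, rose from 9.883, 9.997 and 9.755 to 12.45, 12.09 and 11.63 (log2 2.18, adjusted p = 0.018). Gstm3 rose by 2.21 (adjusted p = 0.031) and the aldose reductase Akr1b1 by 1.02, though not on its other probe set (−0.03). The calls of Gstp1, Gstm3 and Akr1b1 were lost when any 1 Se-deficient array or 5 μg Se/g replicate 1 or 2 was left out, and that of Akr1b1 also without 5 μg Se/g replicate 3.

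Other genes of this kind had means above the Se-adequate level at both extremes, and none was called between them. Abcc3, a basolateral exporter of glucuronides, read 9.50, 9.31 and 9.69 in Se deficiency and 10.78, 9.51 and 9.11 at 5 μg Se/g, against 7.74, 7.59 and 6.75 at 0.24 μg Se/g. The extremes overlapped, with a difference of 0.30 and an interval from −0.49 to 1.10. Against 0.24 μg Se/g, Abcc3 was called at 5 μg Se/g (log2 2.44, adjusted p = 0.0046) but not in Se deficiency (2.14, adjusted p = 0.24), and both contrasts share the Se-adequate arrays. At 2 μg Se/g it read 7.85 to 8.10. Nqo1, a quinone reductase, read 11.98, 12.24 and 12.34 in Se-deficient livers, 12.01, 11.63 and 11.35 at 5 μg Se/g and 11.14 to 11.30 at 0.24 μg Se/g, so that its difference leaned to Se deficiency (−0.52, interval −0.93 to −0.12, adjusted p = 0.22). Ugt2b7, a glucuronosyltransferase, read 6.18, 6.29 and 6.24 against 5.78, 5.55 and 5.27, fully separated but not called (log2 −0.70, adjusted p = 0.064). It was called in 6 of the alternatives. Abcc4, another exporter, differed by 0.66 (adjusted p = 0.12) and lay 1.36 above 0.24 μg Se/g (adjusted p = 0.0036). Of 14 efflux transporters limma called 0, with 2 higher and 2 lower at an unadjusted p below 0.05. Of 9 genes of glucuronidation it called 0, with 1 higher and 2 lower at that p.

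Genes that the study itself had singled out on these samples behaved unevenly when the extremes were compared. Rgs4, a regulator of G protein signalling, read 5.94, 5.79 and 5.94 in Se-deficient livers, 6.59, 6.78 and 6.99 at 5 μg Se/g and 7.62, 7.49 and 7.72 at 2 μg Se/g (log2 0.90 between the extremes, SE 0.12, adjusted p = 0.0031), with 0.24 and no call on its other probe set. Oxct1, of ketone body use, rose from 6.35, 6.36 and 6.41 to 7.22, 7.33 and 7.36 (log2 0.93, adjusted p = 0.00070) and was intermediate at 2 μg Se/g (6.84 to 7.14). Arsb, a lysosomal sulfatase, read 9.60, 9.59 and 9.53 in Se deficiency and 9.79, 9.82 and 9.78 at 5 μg Se/g, a small difference of 0.22 that was not called, and both extremes lay above the 8.97 to 9.24 of Se adequacy. Ccdc80, a matrix protein, read 9.93 to 10.17 in Se deficiency, 10.22 to 11.02 at 5 μg Se/g and 11.11 to 11.40 at 2 μg Se/g. Its difference between the extremes was 0.56 (adjusted p = 0.14). Tsku, Hsph1 and Cirbp differed by 0.31, −0.31 and −0.12, without a call.

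**Figure D5:**
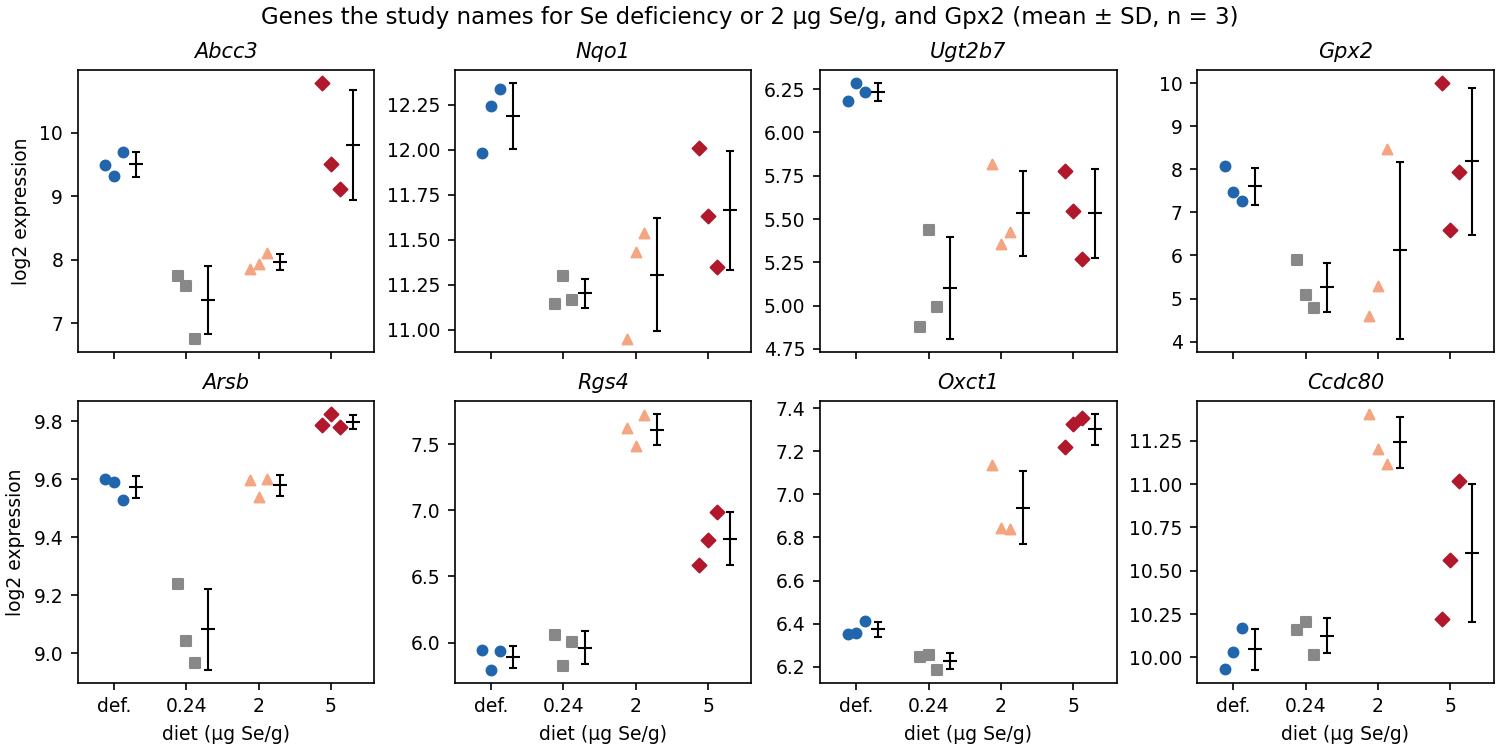
Log2 expression of 8 genes in each array at 4 diets (horizontal axis, def. is Se-deficient), with the mean and SD of 3 arrays beside the points. Vertical scales differ between panels and do not start at 0. The means of Abcc3, Nqo1, Ugt2b7 and Gpx2 at both extremes lay above that at 0.24 μg Se/g, Rgs4 and Ccdc80 were highest at 2 μg Se/g, and Oxct1 was highest at 5 μg Se/g.

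Genes of the amino acid and protein stress responses gave isolated rises. Asns, asparagine synthetase, rose from 7.11, 6.70 and 6.88 to 9.49, 8.60 and 8.77 (log2 2.06, SE 0.28, adjusted p = 0.0035). With Slc7a11 it made up the 2 calls among 40 genes of the amino acid and unfolded protein responses (5.0%, against 2.58% of all genes called higher). Of 22 heat shock and cold-inducible genes the small heat shock proteins Cryab and Hspb1 rose, by 1.86 (adjusted p = 0.0065) and 1.72 (adjusted p = 0.033), the latter lost without any 1 array of 5 μg Se/g or Se-deficient replicate 2 or 3. Cbs, which feeds homocysteine into cysteine synthesis, fell from 11.92, 12.05 and 12.01 to 11.13, 11.32 and 11.44 (log2 −0.70, adjusted p = 0.010), with a call lost without Se-deficient replicate 2 or 3 or 5 μg Se/g replicate 1. Sod3, the extracellular superoxide dismutase, fell by 1.55, the only call among 20 antioxidant genes without Se. Its call did not hold without Se-deficient replicate 2 or 3 or 5 μg Se/g replicate 1 or 2.

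Cell cycle and p53 response genes leaned toward Se deficiency. Of 53 measured, 3 (5.66%) were called lower at 5 μg Se/g and 1 (1.89%) higher, against 0.781% and 2.58% of all genes. Their median of −0.44 was the lowest of the 36 lists. Set against 0.24 μg Se/g the list had a median of 0.01 at 5 μg Se/g and 0.41 in Se deficiency. Mcm6 and Mcm5, helicase subunits of DNA replication, read 8.63, 8.66 and 8.46 against 7.49, 7.49 and 7.36, and 7.36, 7.75 and 7.56 against 6.96, 6.98 and 6.98. In 17 of the 53 genes the toxic arrays lay wholly below the Se-deficient ones, where 13.8% of all genes did so. Plk2, a stress-induced kinase, was lower by 0.58 on the log2 scale (−0.58), and Gadd45b rose by 0.68. The 4 calls were lost in 5 to 13 of the alternatives, and the count of members called lower ran from 0 to 8.

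Of 37 genes of insulin signalling and glucose metabolism, 5 (13.5%) were called higher and 0 lower, against 2.58% and 0.781% of all genes, with a median of 0.12. Grb10, an adaptor that dampens insulin receptor signalling, rose from 5.45, 5.39 and 5.47 to 7.05, 7.12 and 6.95 (log2 1.60, SE 0.12, adjusted p = 0.00015), but on its dimmer probe sets it differed by 0.11 and 0.29. Star, which carries cholesterol into mitochondria, rose from 5.41, 5.58 and 5.71 to 6.90, 7.27 and 7.65 (log2 1.71, adjusted p = 0.00035), and by 2.44 on its other probe set. The sorting receptor Sort1 rose by 0.80 and hexokinase Hk1 by 0.65. Their dimmer probe sets, at 0.50 (adjusted p = 0.057) and −0.01 (adjusted p = 0.99), were not called. Star, Sort1 and Grb10 are among the genes the study itself picked on these samples as raised at high Se. Neither their direction nor the count and share of calls in this list is therefore independent evidence. Insig2, which restrains sterol synthesis, read 12.99, 13.01 and 12.80 against 12.36 in each of the 3 toxic arrays, a fall of 0.57 on the log2 scale (−0.57, adjusted p = 0.017) and the only call among 37 genes of cholesterol and fatty acid synthesis. Nr1h3, the liver X receptor, fell by 0.50 (adjusted p = 0.019). The calls of Grb10, Star and Sort1 held in every alternative that tested them, whereas those of Hk1, Insig2 and Nr1h3 were lost without Se-deficient replicate 1 or 2 or 5 μg Se/g replicate 1 or 2.

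Of the circadian genes Per3 and Bhlhe41 rose by 1.496 and 1.05, and Hlf fell by 0.64. The dimmer Hlf probe sets gave −0.71, −0.51 and −0.26 without a call. The dimmer Per3 probe set gave −0.13, and the Per3 call was lost without any 1 Se-deficient array or 5 μg Se/g replicate 1 or 3. Of 27 genes of iron, heme and metal handling limma called 0, with 5 higher and 5 lower at an unadjusted p below 0.05. Mt2A, a metallothionein, came closest, with 9.64, 9.97 and 10.34 in Se deficiency and 11.69, 12.02 and 13.07 at 5 μg Se/g (log2 2.28, SE 0.54, adjusted p = 0.052). It was called in 10 of the alternatives. Tfrc, the transferrin receptor, differed by 0.72 (adjusted p = 0.065). Of 35 genes of the urea cycle and amino acid breakdown limma called 0, with 3 higher and 5 lower at an unadjusted p below 0.05, and Kmo was closest (−0.47, adjusted p = 0.088). Of 55 respiratory chain subunits it called 0, and 0 passed an unadjusted p of 0.05. Of 40 proteasome subunits it called 0 on the probe sets that stand for them, with 5 lower and 0 higher at an unadjusted p below 0.05. Psmc6 was closest (−0.54, adjusted p = 0.13), and a dimmer Psmc6 probe set was called (−0.64, adjusted p = 0.0090). In 23 of the 40, however, the toxic arrays lay wholly below the Se-deficient ones, where 13.8% of all genes did so, and their median was −0.17.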

How the data were processed

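RNA of 36 mouse and rat tissue samples had been measured on Affymetrix arrays, of which 12 rat liver arrays entered the fit. The log2 values per probe set were deposited by the authors, whose methods state background correction and normalization by RMA in the affy package, separately for each study. The submitters' processing notes name GCRMA instead, and which of these made the values was not settled. With all 18 rat liver arrays in 1 fit, the deposited values gave 1193 calls for 5 against 0.24 μg Se/g, the count the study reported. The fit of 12 arrays used here gave 875. The 57 Affymetrix control probe sets were left out. Symbols came from the platform annotation: 20826 probe sets had 1 symbol, 436 several and 9780 none. A gene was represented by the probe set with the highest mean over the 12 arrays.

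A linear model with 1 mean per diet (Se-deficient, 0.24, 2 and 5 μg Se/g, 3 rats each) was fitted with limma 3.58.1 in R 4.3.3, with empirical Bayes moderation and Benjamini-Hochberg adjustment over 31042 probe sets. Assignment of these diets to 1 experiment follows the study's methods. A p-value here measures the spread between these 3 rats per diet, and the number of arrays limits the precision. Tables and plots were made with Python 3.11.15, pandas 2.3.3, numpy 2.4.6 and matplotlib 3.10.9, and the fit was tested on simulated data. Genes named were the 22 selenoproteins measured, the called genes with the 15 largest rises and the 10 largest falls, up to 4 called members per direction of each of 36 gene lists (the 2 with the smallest p where none was called), and genes the study had named. Cell type markers were named beside them. The members and lists were chosen with earlier results of these data known.

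Alternatives were other sets of arrays in the fit, trend and robust moderation, array weights, leaving out dim probe sets, quantile normalization, a control-spot covariate, a block for replicate number and the omission of single arrays. The rat table had 0 unused per-sample columns. Mouse arrays, rat arrays of other diets outside the named alternative, and the study's enzyme, Se and PCR measurements were not used here.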

Additional observations from a re-analysis of the deposited data

How the results depend on the processing

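For 5 μg Se/g against Se deficiency, all calls kept their sign in every alternative, but counts moved. Array weights gave 2383 calls (1528 higher, 855 lower), the fit of the 6 arrays alone 290 lower calls, and a covariate for the Lys and Phe control spots 279 lower calls. Without the dim probe sets there were 475 calls (342 higher), and with a 2-fold limit added 309 (242 higher, 67 lower), both fewer by construction. Leaving out single arrays gave 305 to 1047 calls, 251 to 754 higher and 45 to 308 lower. For 5 against 0.24 μg Se/g, array weights gave 2810 calls (1810 and 1000), the covariate 331 lower calls and single omissions 351 to 1251 (299 to 939 higher, 52 to 312 lower). For Se deficiency against 0.24 μg Se/g the 1 call became 10 (3 higher, 7 lower) with 6 arrays, 6 (2 and 4) with all 18 rat liver arrays, 2 (0 and 2) with trend and robust moderation, 23 (9 and 14) with weights, 2 (both lower) without dim probe sets and 6 (1 and 5) with the covariate. Single omissions gave 1 to 4 calls there, 0 to 1 higher and 1 to 4 lower. Except where a construction is named, the cause was not tested.

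Replicate numbers did not pair the rats: residuals of same-numbered arrays correlated with r = 0.0601, −0.0385 and 0.0374, and not every array correlated best with its own number. A replicate block gave 683 calls over 12 arrays and 674 over 6, where the calls of Txnrd1 (adjusted p = 0.0704), Txnrd3, Col5a2, Adamts5, Ajuba and Hlf were lost in this alternative alone, and 11 (6 higher, 5 lower) for Se deficiency against 0.24 μg Se/g over 6 arrays.

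Of 100 called genes named, 56 were called in every alternative that tested them, 44 were lost in at least 1, and 0 reversed. Of 34 uncalled genes named, 17 were called in at least 1 alternative and 6 changed sign. Gpx2 changed sign without 5 μg Se/g replicate 1 and ran from −0.33 to 1.37 over the single omissions, Abcc3 without the same array (−0.19 to 0.65), and Cirbp without Se-deficient replicate 1 (−0.23 to 0.007). Dio3 gave −0.001 with quantile normalization and ran from −0.10 to 0.18 over the omissions, changing sign without Se-deficient replicate 2 (−0.05) and 5 μg Se/g replicates 1 and 2 (−0.03 for the latter). Selenoi gave 0.033 with the covariate and ran from −0.21 to 0.046, the latter without 5 μg Se/g replicate 2, and Msrb1 gave 0.06 with the covariate.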
